A study of Mus musculus with 10 samples.

Results

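Collagens are the structural proteins of the extracellular matrix. The collagen genes described here are all rows of the count table whose Entrez ID maps to a mouse symbol made of Col, a number, the letter a and a number, which gave 44 of 27179 rows. Of these, 42 had enough reads to be tested and 2 did not. The RNA came from entire cochleas dissected at postnatal day 8, and 5 libraries labelled Pknox2-/- were compared with 5 labelled Pknox2+/+. Pknox2 codes for a TALE homeodomain protein, one of the PREP group. The Pknox2-/- libraries are called knockout-labelled below and the Pknox2+/+ libraries wild-type. All 10 libraries share the age and the tissue, and no agent was given. The labels name neither strain nor allele, nor do they say whether a library pools several pups.

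A collagen molecule is a triple helix of 3 alpha chains, which are products of the same gene or of different genes. A type can have several combinations of chains, as type IV does. Fibrillar collagens (types I, II, III, V, XI, XXIV and XXVII) form the ropes of bone, skin and cartilage, and the collagens known as FACIT (fibril-associated with interrupted triple helices, such as types IX, XII and XXII) sit on those fibrils. Type IV collagen forms the sheet of basement membranes, with the chain trimers encoded by Col4a1 and Col4a2 found in nearly all tissues. In the cochlea, types II, IX and XI are the collagens of the tectorial membrane and of the otic capsule cartilage, and type I is that of the bone which replaces the capsule. The trimer of the Col4a3, Col4a4 and Col4a5 products is found in cochlear basement membranes, and loss of any of these chains in people causes Alport syndrome, a kidney disease with hearing loss.

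The 6 type IV genes lie in 3 head-to-head pairs, and their start regions are shown because the 2 members of each pair share, or nearly share, a promoter and the pairs are compared below. By the RefSeq gene records of GRCm38.p6, Col4a1 and Col4a2 on chromosome 8 overlap by 85 bases at their starts, and Col4a4 and Col4a3 on chromosome 1 overlap by 114 bases. Col4a6 and Col4a5 on the X chromosome are separated by 1274 bases. The windows run from 250 bases before to 50 bases after the start given in the RefSeq promoter table, 5′ to 3′ on the minus strand. That start lies inside the end of the gene record, by 63 bases for Col4a1, 185 for Col4a4 and 19 for Col4a6, and measured from it Col4a4 does not overlap Col4a3 but lies 71 bases from it, while Col4a1 and Col4a2 overlap by 22. The Col4a1 window, chr8:11312777-11313076, also holds the annotated start of Col4a2, and the Col4a4 window, chr1:82586800-82587099, also holds that of Col4a3. The Col4a6 window is chrX:141474027-141474326. Capitals mark a CCAAT box (ATTGG when read on the opposite strand, in the Col4a1 window) and the run of TGAT followed directly by TGACAG, a composite sequence bound by PBX proteins together with PREP or MEIS proteins (in the Col4a6 window), and the Col4a4 window holds neither.
Col4a1: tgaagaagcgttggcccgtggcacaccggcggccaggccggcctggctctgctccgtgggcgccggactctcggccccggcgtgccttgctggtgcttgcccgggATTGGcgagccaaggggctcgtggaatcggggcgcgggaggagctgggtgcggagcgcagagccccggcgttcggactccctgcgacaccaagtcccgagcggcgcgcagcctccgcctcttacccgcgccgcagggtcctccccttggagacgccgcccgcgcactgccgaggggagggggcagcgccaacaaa
Col4a4: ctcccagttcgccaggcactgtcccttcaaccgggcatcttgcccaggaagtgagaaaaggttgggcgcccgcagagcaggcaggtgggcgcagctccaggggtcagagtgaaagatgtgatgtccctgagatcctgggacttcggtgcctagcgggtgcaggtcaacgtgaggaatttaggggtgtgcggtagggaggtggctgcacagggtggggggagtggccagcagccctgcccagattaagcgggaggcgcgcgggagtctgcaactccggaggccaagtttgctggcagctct
Col4a6: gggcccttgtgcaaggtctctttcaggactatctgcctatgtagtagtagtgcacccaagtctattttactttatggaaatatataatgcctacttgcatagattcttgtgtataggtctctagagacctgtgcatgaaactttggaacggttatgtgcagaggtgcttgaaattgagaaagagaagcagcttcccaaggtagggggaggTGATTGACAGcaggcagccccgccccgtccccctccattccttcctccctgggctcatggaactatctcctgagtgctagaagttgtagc

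Across 38 RefSeq promoter windows of 35 collagen genes, the composite sequence (TGAT and TGACAG with no gap), searched on both strands, occurred in 1 window, that of Col4a6, or 2.63%, against 0.222% of all 32851 windows. Its first base lay 40 bases before the start in that table. TGACAG alone, which that sequence contains and which PREP and MEIS proteins bind, occurred in 7 collagen windows (18.4%, against 19.2% of all windows), those of Col3a1, Col4a6, Col6a6, Col7a1, Col9a2, Col15a1 and Col19a1. The GC box GGGCGG occurred in 23 collagen windows (60.5%, against 35.7%), CCAAT in 13 (34.2%, against 37.4%) and TATAAA in 5 (13.2%, against 13.6%), each on either strand. Col1a1, Col2a1, Col4a3, Col5a2, Col9a3, Col12a1, Col14a1, Col22a1 and Col26a1 had no window of their own in that table. Their absence from these matches is therefore not a result. These matches describe the letters and are not binding sites.

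Libraries held 16642525 to 19394072 counted reads. In a principal component analysis of all tested genes, the first component held 56.6% of the variance, and knockout-labelled libraries 2, 3 and 5 scored 41.2 to 73.5 on it, against -42.3 to 2.77 in the other 7. Fits without libraries 2, 3 and 5 leave out only these knockout-labelled libraries and keep all 5 wild-type ones. Knockout-labelled libraries 1 and 4 are then all that is left of their group. Libraries 2, 3 and 5 were set apart by these same expression values. Such a fit shows how far a value rests on them and is not an independent check. The summed level of 4 Y-linked genes was 102 to 225 CPM (read counts normalised to library size) in the wild-type libraries and 209 CPM in knockout-labelled library 1, against 0 to 11.3 CPM in knockout-labelled libraries 2 to 5, so the sex makeup differed between the groups and cannot be fully told apart from genotype. The Pknox2 row itself had 19.9 ± 1.96 CPM (SD, n = 5) in the wild-type and 21.1 ± 4.38 CPM (SD, n = 5) in the knockout-labelled libraries (adjusted p = 0.736 by edgeR), so it was not lower under the knockout label. The labels do not say which part of the gene is deleted, a count over the whole gene then does not check the label, and every direction below rests on the labels. Markers of hair cells, 9 of 9 in the table, summed to 233 to 366 CPM over all libraries, and markers of cochlear supporting and tectorial membrane cells to 1261 to 1830 CPM. Pvalb alone, at 133 to 304 CPM, made up most of the hair cell sum in every library. Osteoblast markers summed to 10560 to 15868 CPM, the highest sum of these 3 lists. Ibsp alone was at 5881 to 8323 CPM, a large part of that sum. In bulk tissue, fewer cells of a type and less RNA per cell cannot be told apart.

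Collagens took 3.91% ± 0.573 (SD, n = 5) of all counted reads in the wild-type libraries, with single libraries from 3.04% to 4.63%. In the knockout-labelled libraries the share was 4.21% ± 0.349 (SD, n = 5), from 3.67% to 4.55%, inside the wild-type range. Fibrillar genes held 79.3% of the collagen reads, FACIT genes 13.7%, basement membrane genes 3.44%, and each other class under 2%. The 8 cartilage collagens (Col2a1, Col9a1, Col9a2, Col9a3, Col10a1, Col11a1, Col11a2 and Col27a1) held 49.0%, and Col1a1 with Col1a2 held 33.2%.

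Per kilobase of transcript, the highest wild-type level was that of Col2a1, the single chain of cartilage type II collagen, at 1638 ± 380 CPM per kb (SD, n = 5). Col1a2 and Col1a1, the 2 chains of type I collagen, followed at 1209 ± 200 and 945 ± 119 CPM per kb. Col11a2, a chain of the thin type XI fibrils, had 645 ± 115 CPM per kb, and Col9a1, Col9a2 and Col9a3, the type IX chains, had 514 ± 75.6, 472 ± 100 and 374 ± 63.1 CPM per kb. The means of neighbours in this order differed by less than both SDs together, except that Col1a1 stood above Col11a2 by more. These genes were measured in the same libraries, however, and the order from Col2a1 to Col9a3 was the same within every wild-type library. Col11a1 (291 ± 53.8 CPM per kb) and Col3a1 (279 ± 34.7 CPM per kb), the type III chain of elastic tissue, were not separated by their spread.

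Below these, Col5a2 had 194 ± 25.5 CPM per kb and Col8a1, a short chain that builds networks beneath endothelium, 114 ± 17.7 CPM per kb. The common basement membrane chains Col4a1 and Col4a2 followed at 82.1 ± 12.7 and 67.4 ± 11.4 CPM per kb, and the tissue-restricted Col4a3, Col4a5, Col4a4 and Col4a6 at 12.6 ± 3.55, 12.0 ± 2.48, 4.56 ± 1.32 and 1.55 ± 0.308 CPM per kb. Col10a1, the collagen of hypertrophic cartilage, ranked 35th of 44 at 3.26 ± 0.615 CPM per kb. Col6a4 and Col17a1, a hemidesmosome collagen of skin, were lowest and had 0 to 11 and 5 to 10 reads per library over both groups, too few to test.

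**Figure D1:**
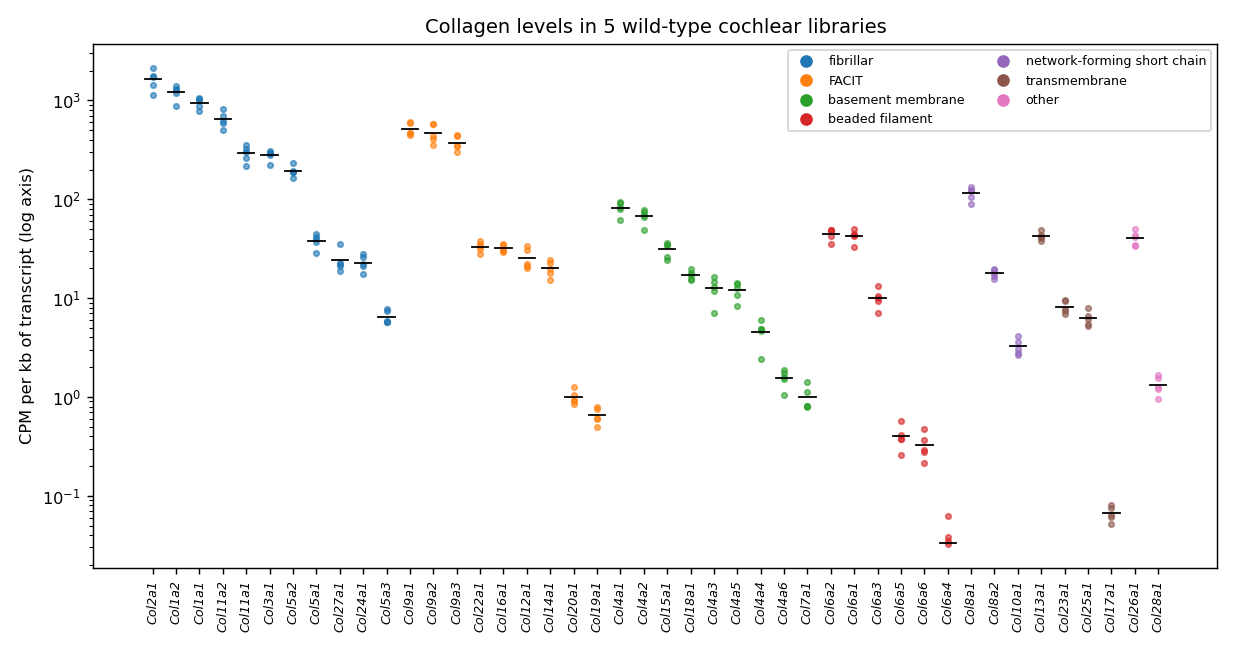
Level of each of the 44 collagen genes in the 5 wild-type libraries, in CPM per kilobase of transcript on a log axis, grouped by class. Points are libraries and bars are means; 1 library with 0 reads of Col6a4 cannot be drawn. Col2a1, Col1a2 and Col1a1 are highest (1638, 1209 and 945 CPM per kb).

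Knockout-labelled and wild-type libraries were compared gene by gene with edgeR's quasi-likelihood test, with Benjamini-Hochberg adjustment over all 16018 genes tested. At an adjusted p under 0.05, 0 of the 42 tested collagen genes were called, where 3 genes of all tested (0.0187%) were. DESeq2 called 4 (Col1a1, Col8a1, Col13a1 and Col22a1), where it called 2.11% of all genes. Other settings called 14 (limma-voom with sample quality weights; 39.1% of all genes), 2 (without knockout-labelled library 1; 1.03%), 1 (with a trend on GC content and transcript length removed; 0.137%), 0 (without libraries 2, 3 and 5; 0.00607%) and 0 (with the replicate number as a block; 0.00624%). At an unadjusted p under 0.05, 6 collagen genes were higher (11.4% of all genes were) and 3 were lower (8.66% of all genes were). Together this was 21.4% of the collagen genes against 20.1% of all genes, so the share was near the background in this fit. With 1 surrogate variable 13 were higher and 2 lower, where 1559 of 16018 genes passed in either direction. With the first principal component in the fit 13 were higher and 1 lower (1529 genes). With the GC and length trend removed 13 were higher and 4 lower (3446 genes), and with the Y-linked genes in the fit 0 passed (293 genes). The share thus depended on the fit. In 3 collagen genes, Col1a1, Col6a2 and Col22a1, all 5 knockout-labelled libraries lay above all 5 wild-type ones, a pattern seen in 1.15% of all genes, and in 0 did all lie below (1.22% of all genes). The median log2 fold change was -0.08 over the collagen genes, with 18 above 0 and 24 below, and -0.01 over all genes. Without knockout-labelled libraries 2, 3 and 5, the median of the collagen genes was 0.09, with 26 above 0 and 16 below.

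**Figure D2:**
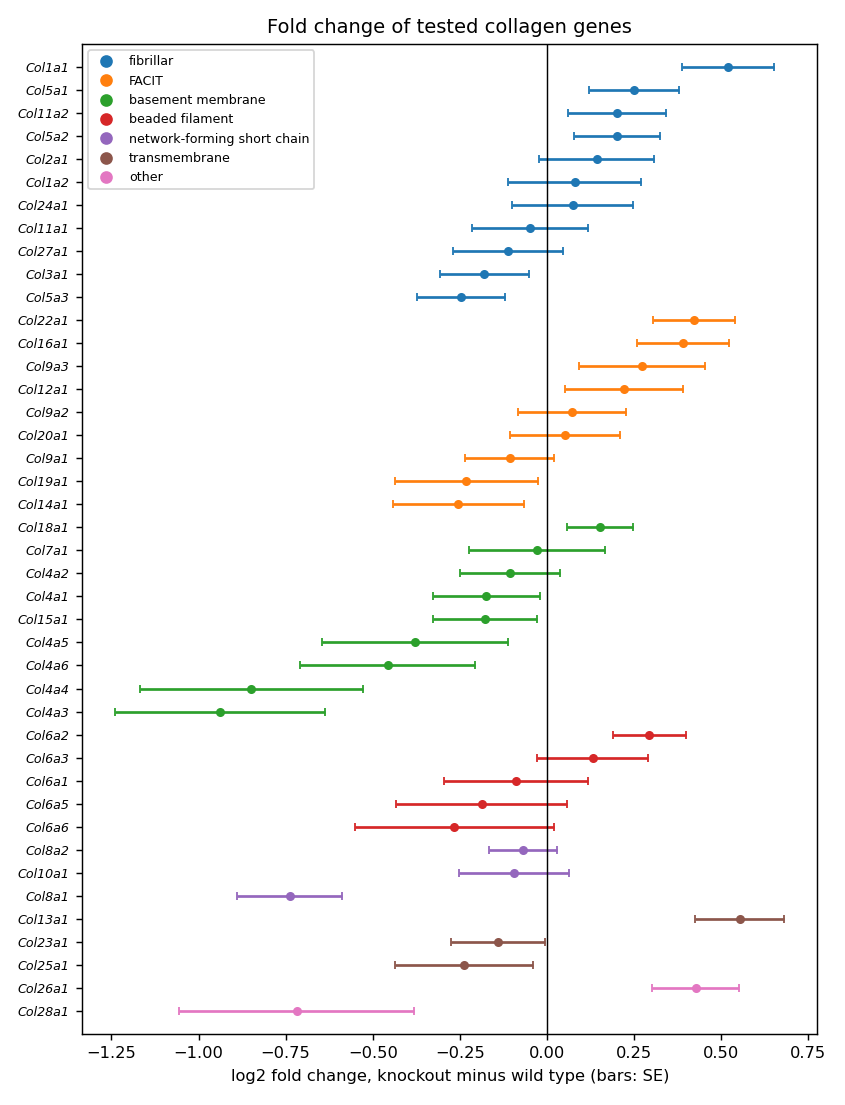
Log2 fold change of the 42 tested collagen genes, knockout-labelled minus wild-type, by class. Points are edgeR estimates and bars their standard errors. Values run from -0.94 (Col4a3) to 0.55 (Col13a1), and 8 of 9 basement membrane genes lie below 0.

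Of the 11 fibrillar genes, 0 were called, 7 had a fold change above 0 and 4 below, with a median of 0.08 (9 above, 2 below and a median of 0.19 without libraries 2, 3 and 5). Col1a1 (chromosome 11, 94936224 to 94953042 in GRCm38.p6), the chain that supplies most of each type I molecule, had the highest fold change of its class. It had 6102, 4594, 6253, 5158 and 5926 CPM in wild-type libraries 1 to 5 and 7303, 7305, 8140, 8434 and 8986 CPM in knockout-labelled libraries 1 to 5. The groups did not overlap, and libraries 2, 3 and 5 were not set apart from 1 and 4 for this gene. Its log2 fold change was 0.52 (SE 0.132), with an unadjusted p of 0.00192 and an adjusted p of 0.208 by edgeR, and DESeq2 gave an adjusted p of 0.00180. Over all alternatives run, the log2 fold change was 0.42 to 0.57 and the adjusted p 0.00180 to 0.99995. With libraries 2, 3 and 5 left out the log2 fold change was 0.49.

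Col1a2, which supplies the remaining type I chain, had a smaller fold change. It had 7056, 4716, 6775, 6299 and 7482 CPM in the wild-type and 8294, 4274, 6903, 7940 and 6739 CPM in the knockout-labelled libraries, with broad overlap, and its log2 fold change was 0.08 (SE 0.190, adjusted p = 0.805 by edgeR). Knockout-labelled library 2 was the lowest of all 10 for Col1a2. Leaving out libraries 2, 3 and 5 gave a log2 fold change of 0.33, against 0.49 for Col1a1. With the Y-linked covariate, 1 surrogate variable or the first principal component in the fit, Col1a2 was at 0.37, 0.40 and 0.45 (unadjusted p = 0.204, 0.00660 and 0.00551 by edgeR), not called in any of them. The surrogate variable and the principal component were computed from these same expression values, so those fits are not independent checks.

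Col2a1 had 5796 to 10913 CPM in the wild-type libraries, a wide range, and 8801 to 9701 CPM in the knockout-labelled ones, all inside it (log2 fold change 0.14, SE 0.164, adjusted p = 0.584 by edgeR). Col3a1 had 1554 ± 193 CPM in the wild-type and 1371 ± 160 CPM in the knockout-labelled group (SD, n = 5 each; log2 fold change -0.18, SE 0.127, adjusted p = 0.379 by edgeR). The type V chains, which set fibril diameter, had log2 fold changes of 0.25 for Col5a1, 0.20 for Col5a2 and -0.25 for Col5a3 (SE 0.129, 0.123 and 0.126). For Col5a1, 4 of 5 knockout-labelled libraries lay above the wild-type maximum. Col5a3 had 35.3, 35.2, 36.0, 45.3 and 47.1 CPM in the wild-type and 36.6, 31.7, 28.2, 33.1 and 38.3 CPM in the knockout-labelled libraries, of which 3 lay below the wild-type minimum. Col11a1 and Col11a2 had log2 fold changes of -0.05 and 0.20 (SE 0.166 and 0.141).

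Col1a1 is the main collagen of osteoblasts, and of the 11 osteoblast and osteocyte markers 0 were called. All 11 had a fold change above 0 (median 0.25), and 5 were higher at an unadjusted p under 0.05, where 11.4% of all genes were. Their summed level was 10560 to 12962 CPM in the wild-type and 12374 to 15868 CPM in the knockout-labelled libraries, which overlap through knockout-labelled library 1. Osteoclast markers summed to 2314 to 3744 CPM and 3862 to 7099 CPM, with no overlap. The fibroblast and mesenchyme markers summed to 1538 to 1896 CPM and 1638 to 1867 CPM, a full overlap. The members of that list differed in direction, with 6 of 9 fold changes above 0 and 3 below. Lum and Dcn, the genes of highest level in it, were at 0.25 and -0.22. At an unadjusted p under 0.05, 2 were higher (Twist2 and Clec3b, at 0.93 and 0.95) and 0 lower. The part of these cell types in the Col1a1 difference was not tested.

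Among the 9 basement membrane genes, 0 were called, 8 had a fold change below 0 and only Col18a1 was above it (0.15, SE 0.0945). The median was -0.18. The common chains differed little: Col4a1 had 543 ± 83.9 CPM in the wild-type and 481 ± 92.5 CPM in the knockout-labelled group, and Col4a2 435 ± 73.7 and 404 ± 58.8 CPM (SD, n = 5 each; log2 fold changes -0.17 and -0.11, adjusted p = 0.477 and 0.646 by edgeR). Leaving out knockout-labelled libraries 2, 3 and 5 turned both, and the class: 6 of 9 genes were then above 0 and the median was 0.08.

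Col4a3 (chromosome 1, 82586921 to 82722059) had the lowest fold change of all tested collagens. Its level was 101, 60.5, 125, 112 and 141 CPM in wild-type libraries 1 to 5 and 92.4, 33.3, 39.4, 76.8 and 39.5 CPM in knockout-labelled libraries 1 to 5. Only libraries 2, 3 and 5 lay below the wild-type minimum, and libraries 1 and 4 were inside the wild-type range. The log2 fold change was -0.94 (SE 0.301, unadjusted p = 0.00889, adjusted p = 0.214 by edgeR). It was -0.35 without libraries 2, 3 and 5, and over all alternatives run the adjusted p was 0.00570 to 0.99995.

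Its neighbour Col4a4 followed the same libraries. It had 49.4, 24.4, 48.8, 46.9 and 60.9 CPM in the wild-type and 45.3, 14.8, 18.2, 32.8 and 16.7 CPM in the knockout-labelled libraries, where again libraries 2, 3 and 5 lay below the wild-type minimum. The log2 fold change was -0.85 (SE 0.321, unadjusted p = 0.0211, adjusted p = 0.225 by edgeR), and -0.24 without those 3 libraries.

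The X-linked pair had the same 3 libraries lowest. Col4a5 had 54.8 to 93.9 CPM in the wild-type libraries, 91.5 and 86.1 CPM in knockout-labelled libraries 1 and 4, and 32.8, 46.7 and 44.97 CPM in 2, 3 and 5. Col4a6 had 6.99 to 12.3 CPM in the wild-type, 10.9 and 10.3 CPM in 1 and 4, and 5.76, 4.69 and 5.90 CPM in 2, 3 and 5. Their log2 fold changes of -0.38 and -0.46 (SE 0.267 and 0.250, adjusted p = 0.378 and 0.289 by edgeR) turned to 0.18 and 0.04 without the 3 libraries. The endothelial and pericyte markers, cells that rest on type IV collagen, summed to 711 to 880 CPM in the wild-type and 724 to 813 CPM in the knockout-labelled libraries. Schwann cell markers, another cell type with a basement membrane, summed to 14341 to 18311 CPM and 8916 to 12217 CPM with no overlap, and their part in the type IV values was not tested. Part of the Col4a3 exons, 563 bases or 5.65%, is shared on the opposite strand with C430014B12Rik, and whether the counting used strand is unknown.

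**Figure D3:**
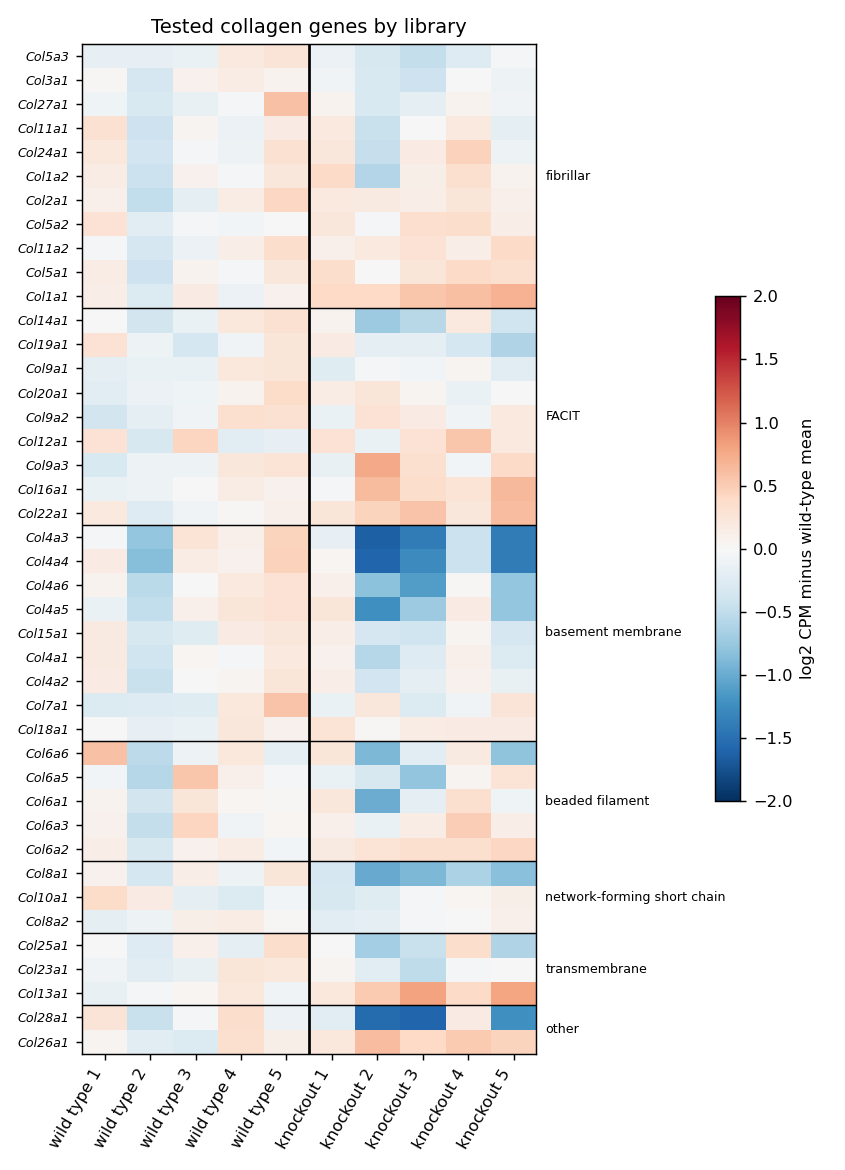
Log2 CPM of the 42 tested collagen genes in each of the 10 libraries, minus the gene's wild-type mean, grouped by class. Blue is lower and red higher. In the basement membrane block, Col4a3, Col4a4, Col4a5 and Col4a6 are darkest blue in knockout-labelled libraries 2, 3 and 5, and Col28a1 shows the same libraries.

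Of the 9 FACIT genes tested, 0 were called, 6 had a fold change above 0 and 3 below, with a median of 0.07 (4 above and 5 below without libraries 2, 3 and 5). Col22a1, a collagen of tissue junctions such as those of muscle and tendon, had 331, 244, 277, 295 and 313 CPM in the wild-type and 343, 395, 431, 341 and 446 CPM in the knockout-labelled libraries. The groups did not overlap, although knockout-labelled libraries 1 and 4 were close to the wild-type maximum. The log2 fold change was 0.42 (SE 0.118, unadjusted p = 0.00370, adjusted p = 0.210 by edgeR and 0.0373 by DESeq2), and 0.23 without libraries 2, 3 and 5. Col16a1, which associates with several kinds of fibril, had 152 to 185 CPM in the wild-type and 162, 258, 212, 202 and 261 CPM in the knockout-labelled libraries. Its log2 fold change was 0.39 (SE 0.132, unadjusted p = 0.0116, adjusted p = 0.217 by edgeR), and 0.12 without libraries 2, 3 and 5.

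Of the 3 type IX chains, which coat type II fibrils, 0 were called. Col9a1 had 1970 ± 290 CPM in the wild-type and 1829 ± 167 CPM in the knockout-labelled group, Col9a2 1381 ± 292 and 1452 ± 176 CPM, and Col9a3 1140 ± 192 and 1377 ± 356 CPM (SD, n = 5 each). Their log2 fold changes were -0.11, 0.07 and 0.27 (SE 0.127, 0.155 and 0.182, adjusted p = 0.596, 0.780 and 0.356 by edgeR). For Col9a3, knockout-labelled libraries 2, 3 and 5 had 1908, 1411 and 1465 CPM, above the wild-type maximum of 1366 CPM, while libraries 1 and 4 had 1016 and 1086 CPM. Without those 3 libraries its log2 fold change was -0.12. Col9a3 shares 6.07% of its exon bases with Tcfl5 on the opposite strand, whose own level was 2.69 CPM.

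The 8 cartilage collagens, taken across classes, had 4 fold changes above 0 and 4 below, a median of 0.01, and 0 calls, also at an unadjusted p under 0.05. Their fold changes ran from -0.11 to 0.27. Col10a1 had 10.2 ± 1.93 and 9.55 ± 1.24 CPM (SD, n = 5 each; log2 fold change -0.10, SE 0.158, adjusted p = 0.713 by edgeR). Chondrocyte markers summed to 736 to 871 CPM in the wild-type and 662 to 801 CPM in the knockout-labelled libraries, and hypertrophic chondrocyte markers to 690 to 909 CPM and 799 to 1068 CPM, both with overlap.

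Among the 3 network-forming short chains, Col8a1 (chromosome 16, 57624256 to 57754737) had the smallest unadjusted p of all collagens. It had 614, 452, 637, 538 and 683 CPM in wild-type libraries 1 to 5 and 458, 289, 310, 372 and 324 CPM in knockout-labelled libraries 1 to 5. Of the latter, 4 lay below the wild-type minimum, and library 1 was just above it. The log2 fold change was -0.74 (SE 0.151, unadjusted p = 0.000364, adjusted p = 0.179 by edgeR and 0.00205 by DESeq2). It was -0.49 without libraries 2, 3 and 5, and with the GC and length trend removed it was -0.54 with an adjusted p of 0.0407. Col8a2, the other type VIII chain, had 77.6 ± 7.51 and 73.9 ± 6.62 CPM (SD, n = 5 each; log2 fold change -0.07, SE 0.0977).

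The beaded filament collagens of type VI surround cells in connective tissue. Of 6 such genes 5 were tested, 2 had a fold change above 0 and 3 below, with a median of -0.09, and 0 were called. The median was 0.24 (4 above 0, 1 below) without libraries 2, 3 and 5, 0.21 with the Y-linked covariate, 0.28 with 1 surrogate variable and 0.30 with the first principal component. Col6a2 had 226, 165, 220, 228 and 200 CPM in the wild-type and 234, 249, 257, 258 and 275 CPM in the knockout-labelled libraries, with no overlap but a small gap (log2 fold change 0.29, SE 0.105, unadjusted p = 0.0160, adjusted p = 0.221 by edgeR). Col6a1, its partner in the trimer, had 183, 135, 207, 178 and 176 CPM against 204, 87.7, 153, 217 and 164 CPM (log2 fold change -0.09, SE 0.208), with knockout-labelled library 2 the lowest of all 10.

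Of the transmembrane collagens, Col13a1 (chromosome 10, 61838234 to 61979206), found at neuromuscular junctions and cell adhesion sites, had the highest fold change of all collagens. It had 121, 130, 138, 155 and 128 CPM in the wild-type and 154, 193, 233, 174 and 231 CPM in the knockout-labelled libraries, of which 4 lay above the wild-type maximum. The log2 fold change was 0.55 (SE 0.128, unadjusted p = 0.000942, adjusted p = 0.205 by edgeR and 0.0112 by DESeq2), and 0.29 without libraries 2, 3 and 5. Col26a1, a small collagen outside the main classes, had 113 ± 19.3 and 152 ± 15.8 CPM (SD, n = 5 each), 4 knockout-labelled libraries above the wild-type maximum, and a log2 fold change of 0.43 (SE 0.125, unadjusted p = 0.00514, adjusted p = 0.210 by edgeR). Col28a1, a collagen of peripheral nerve in mice, had 4.04 to 7.06 CPM in the wild-type, 4.75 and 6.18 CPM in knockout-labelled libraries 1 and 4, and 1.90, 1.83 and 2.35 CPM in 2, 3 and 5. Its log2 fold change was -0.72 (SE 0.338, adjusted p = 0.253 by edgeR), and -0.04 without those 3 libraries.

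**Figure D4:**
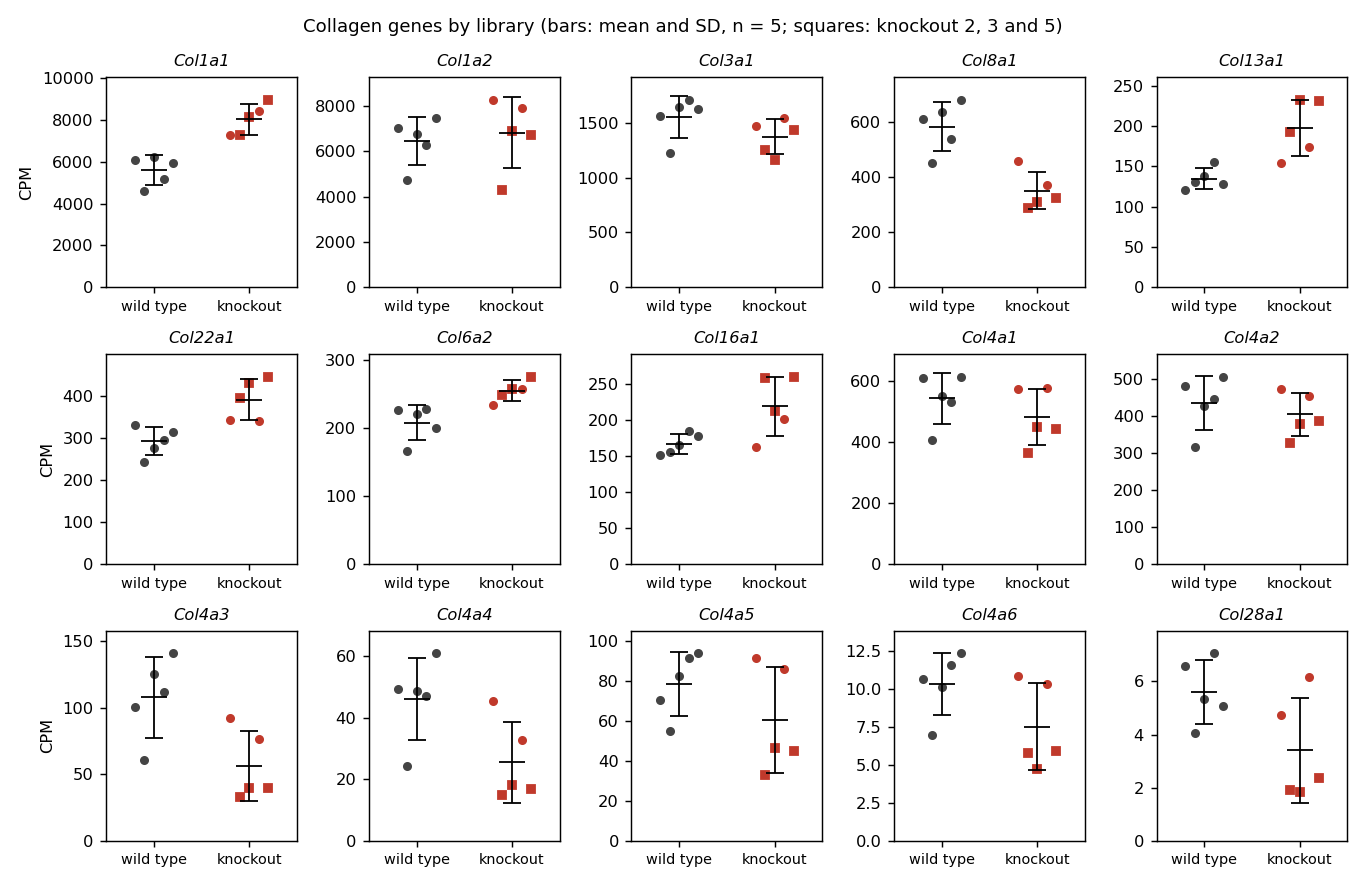
CPM of 15 collagen genes in each library, with mean and SD (n = 5 per group); squares mark knockout-labelled libraries 2, 3 and 5 and every axis starts at 0. Col1a1, Col6a2 and Col22a1 do not overlap between groups, whereas the low Col4a3, Col4a4, Col4a5, Col4a6 and Col28a1 values are those of the squares.

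With the summed level of the Y-linked genes as a covariate, 0 collagen genes had an unadjusted p under 0.05, where 1.83% of all genes did. The log2 fold change was then 0.42 for Col1a1 (unadjusted p = 0.0645), -0.46 for Col8a1 (unadjusted p = 0.0529), -0.38 for Col4a3 and -0.03 for Col16a1. Over 15620 genes with a known transcript, the fold change also went with transcript composition: Spearman's rho was 0.28 with GC content and -0.51 with transcript length. These are descriptions across genes of the same 10 libraries. Col4a3 and Col4a4 have transcripts of 8554 and 10108 bases, against 5930 for Col1a1 and 3162 for Col13a1, and the part of transcript length in their values was not tested beyond the trend removal, under which Col4a3 was at -0.74, Col4a4 at -0.64, Col1a1 at 0.57, Col13a1 at 0.42, Col22a1 at 0.68 and Col26a1 at 0.26.

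Ratios of 2 chains within a library do not depend on the scaling between libraries. For 15 ratios of chains that share a molecule or a tissue, the mean log2 ratio was compared by an exact two-sided permutation test over the 10 libraries, with adjustment over the 15, and none passed at 0.05. The smallest p that 5 against 5 allows is 0.00794, and after adjustment the smallest value was 0.119.

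The ratio of Col3a1 to Col1a1 reads, types III and I often sharing a fibril, was 0.256, 0.266, 0.263, 0.332 and 0.275 in wild-type libraries 1 to 5 and 0.201, 0.172, 0.142, 0.183 and 0.159 in knockout-labelled libraries 1 to 5. All 5 knockout-labelled libraries lay below all wild-type ones (difference of mean log2 ratios -0.70, exact permutation p = 0.00794, the smallest possible, adjusted p = 0.119). The difference was -0.53 without libraries 2, 3 and 5, and with the GC and length trend removed -0.62. The ratio of Col1a1 to Col1a2, the 2 chains of 1 molecule, was 0.792 to 0.974 in the wild-type libraries and 0.881, 1.71, 1.18, 1.06 and 1.33 in the knockout-labelled ones, of which 4 lay above the wild-type maximum. The difference was 0.46 on the log2 scale (exact permutation p = 0.0238, adjusted p = 0.119), and 0.15 without libraries 2, 3 and 5. Col8a2 to Col8a1 was 0.111 to 0.160 in the wild-type and 0.146, 0.235, 0.244, 0.206 and 0.256 in the knockout-labelled libraries (difference 0.67, exact permutation p = 0.0238, adjusted p = 0.119), and 0.38 without those 3 libraries.

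Over the 10 libraries, the head-to-head type IV partners varied less in their ratio than in their levels. The log2 levels of Col4a4 and Col4a3 had SDs of 0.754 and 0.757, and their log2 ratio an SD of 0.111. For Col4a2 and Col4a1 the SDs were 0.234 and 0.265, and 0.0765 for the ratio, and for Col4a6 and Col4a5 they were 0.501 and 0.538, and 0.214 for the ratio. Pairs on different chromosomes also had ratio SDs below those of both chains, at 0.135 for Col5a1 to Col5a2 and 0.164 for Col9a3 to Col9a2, while the ratio SD was 0.188 for Col9a1 to Col9a2 and 0.351 for Col1a1 to Col1a2. Between groups the Col4a4 to Col4a3 ratio differed by 0.08 (exact permutation p = 0.310), Col4a2 to Col4a1 by 0.08 (exact permutation p = 0.119) and Col4a6 to Col4a5 by -0.05 (exact permutation p = 0.754). Whether the SDs of these pairs differ was not tested.

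The cartilage chain ratios overlapped between groups. The difference was 0.26 for Col11a2 to Col11a1, 0.22 for Col2a1 to Col11a1, -0.19 for Col9a1 to Col9a2 and 0.16 for Col9a3 to Col9a2, with exact permutation p of 0.206, 0.183, 0.127 and 0.0873. Col2a1 to Col1a1, cartilage against bone collagen, differed by -0.35 (exact permutation p = 0.0556, adjusted p = 0.208), with 3 knockout-labelled libraries below the wild-type minimum. Col6a2 to Col6a1 was 1.06 to 1.28 in the wild-type and 1.15, 2.84, 1.68, 1.19 and 1.67 in the knockout-labelled libraries, so libraries 2, 3 and 5 alone lay above (difference 0.44, exact permutation p = 0.103).

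**Figure D5:**
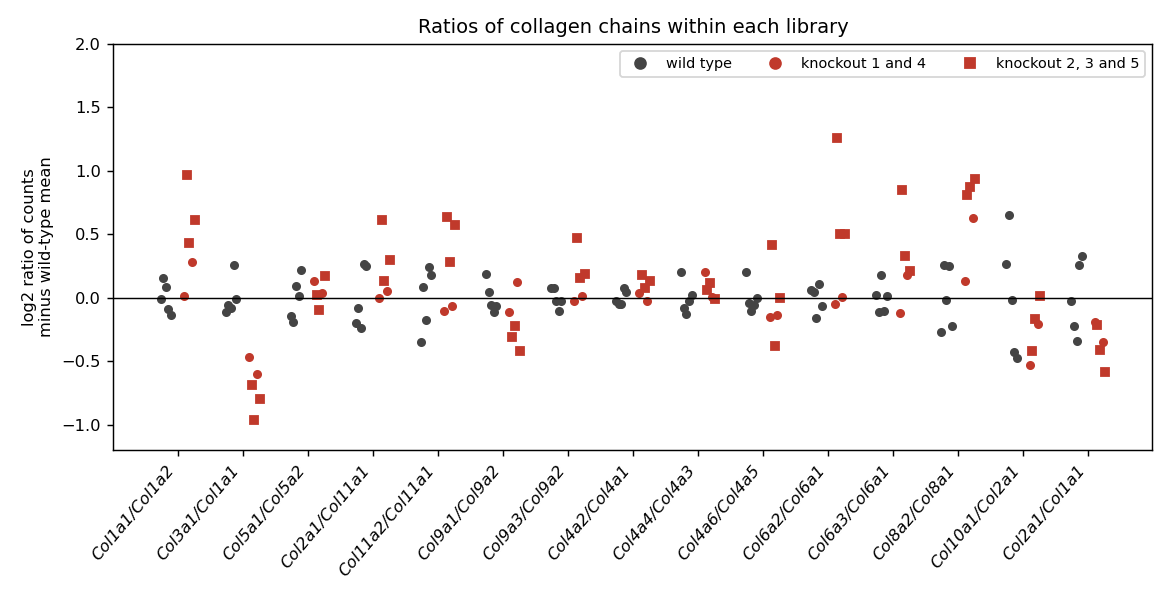
Log2 ratio of the read counts of 2 collagen genes in each library, minus the wild-type mean, for the 15 ratios tested. Squares are knockout-labelled libraries 2, 3 and 5. Col3a1/Col1a1 is the ratio at which all 5 knockout-labelled libraries lie below all 5 wild-type ones (difference -0.70), and the type IV pairs Col4a2/Col4a1 and Col4a4/Col4a3 lie within a narrow band.

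Beyond the chains, 21 genes for the enzymes and chaperones that modify and fold them in the endoplasmic reticulum were tested, and 0 were called. In 16 the fold change was above 0 and in 5 below, with a median of 0.26 against -0.01 over all genes. At an unadjusted p under 0.05, 12 of them were higher and 0 lower, where 11.4% and 8.66% of all genes were. In 4 of the 21, P3h1, P3h3, Crtap and Serpinh1, all 5 knockout-labelled libraries lay above all 5 wild-type ones, where 1.15% of all genes did so. Crtap, a partner of prolyl 3-hydroxylase, had 135 ± 7.66 CPM in the wild-type and 197 ± 31.5 CPM in the knockout-labelled group (SD, n = 5 each; log2 fold change 0.54, SE 0.116, adjusted p = 0.179 by edgeR). Fkbp10, a prolyl isomerase that assists collagen folding, had 252 ± 26.4 and 409 ± 101 CPM (log2 fold change 0.70, SE 0.164, adjusted p = 0.205 by edgeR). Without libraries 2, 3 and 5, 18 of the 21 were above 0 and the median was 0.19, with Crtap at 0.28 and Fkbp10 at 0.29. In that fit 4 of the 21 had an unadjusted p under 0.05, where only 4.02% of all genes did. With the Y-linked covariate, 18 were above 0 and 0 had an unadjusted p under 0.05, where 1.83% of all genes did. With the GC and length trend removed, Crtap was at 0.28, Fkbp10 at 0.53, P3h1 at 0.21, P3h3 at 0.09 and Serpinh1 at 0.21. In that edgeR fit the unadjusted p was 0.322 for P3h3 and 0.0947 for Serpinh1. It was 0.00180 for Crtap, 0.000527 for Fkbp10 and 0.0442 for P3h1.

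Of 14 listed genes for secretion and propeptide removal, 11 were tested and 0 called, with 4 above 0 and 7 below. Pcolce, which enhances removal of the C-terminal propeptide of fibrillar collagens, had 204 ± 22.7 and 315 ± 82.7 CPM (log2 fold change 0.63, SE 0.171, adjusted p = 0.210 by edgeR). Tll1, one of the proteases that remove it, had 5.72 ± 0.781 and 3.14 ± 1.16 CPM (log2 fold change -0.86, SE 0.232, adjusted p = 0.210 by edgeR). They were at 0.19 and -0.44 without libraries 2, 3 and 5, and Pcolce was at 0.31 with the GC and length trend removed. The 5 crosslinking enzymes of the lysyl oxidase family had 0 calls, 3 above 0 and 2 below, and 0 with an unadjusted p under 0.05. Those of smallest p were Loxl3 and Loxl4, at log2 fold changes of 0.16 and 0.28 (SE 0.0945 and 0.164, adjusted p = 0.303 and 0.308 by edgeR).

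Of the 19 proteoglycans and glycoproteins of fibrils, 1 was called, where 3 of all 16018 genes (0.0187%) were. The list was chosen with earlier results of these data known. The called gene, Thbs4, a thrombospondin of tendon and muscle matrix, fell from 7.84 ± 1.21 to 3.16 ± 0.411 CPM (SD, n = 5 each; log2 fold change -1.31, SE 0.165, adjusted p = 0.0300 by edgeR), with an adjusted p of 0.501 without libraries 2, 3 and 5 at a log2 fold change of -1.24. The other 18 were not called, and of all 19, 9 were above 0 and 10 below. Among 10 receptors and uptake genes 0 were called, 4 above 0 and 6 below, and Mrc2, an endocytic collagen receptor, had 436 ± 37.0 and 548 ± 55.4 CPM (log2 fold change 0.33, SE 0.106, adjusted p = 0.214 by edgeR). Mrc2 was at 0.19 without libraries 2, 3 and 5 and at 0.10 with the Y-linked covariate. Itga1, a collagen-binding integrin subunit, had 17.0 ± 3.58 and 13.5 ± 3.36 CPM (log2 fold change -0.34, SE 0.196, adjusted p = 0.307 by edgeR), and a log2 fold change of -0.00466 without those 3 libraries. Of 12 degradation genes 11 were tested and 0 called, 8 above 0 and 3 below. Ctsk, the collagen-degrading cathepsin of osteoclasts, had 1313 ± 285 and 2191 ± 514 CPM (log2 fold change 0.74, SE 0.194, adjusted p = 0.210 by edgeR), and Mmp9, a gelatinase, 710.0 ± 131 and 1164 ± 180 CPM (log2 fold change 0.71, SE 0.152, adjusted p = 0.179 by edgeR). Without libraries 2, 3 and 5, Ctsk was at 0.36 and Mmp9 at 0.57. Both are also on the list of osteoclast markers whose sums are given above.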

How the data were processed

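The authors deposited raw read counts per Entrez gene for 10 libraries, and all of its per-sample columns were mapped by title. HISAT2, featureCounts, limma and the build mm10 are named, without roles, per the submitters' processing notes. Annotation, strand setting and filters: not given in the sources used here. Symbols, starts and promoter windows came from RefSeq GRCm38.p6, which named 25275 of 27179 IDs; GENCODE M21 named 18 more and gave transcript lengths.

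Counts were tested with edgeR 4.0.16 (R 4.3.3; TMM scaling, filterByExpr with a minimum count of 10 and total of 15, quasi-likelihood F-test on group, Benjamini-Hochberg adjustment). CPM values use TMM-scaled library sizes. Chain ratios used counts plus 0.5. Alternatives used DESeq2 1.42.0, limma 3.58.1, sva 3.50.0, other scalings and filters, covariates and omitted libraries. The fitting code was tested on simulated data.

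Genes were named by a rule: the types I, II, IV, IX, X and XI chains, the 5 smallest unadjusted p in each direction, and the gene of highest wild-type level per kilobase in each class. In each pathway list, called genes or else the 2 of smallest p were named. Col3a1, Col5a1, Col5a2, Col6a1, Col8a2, Col18a1, P3h1, P3h3 and Serpinh1 were named after their values were seen. The members and lists were chosen with earlier results of these data known. The series text calls the samples independent, so p-values reflect the spread between them.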

Additional observations from a re-analysis of the deposited data

Results flagged for a closer look

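Across 78 groups of 5 libraries examined for a library far from its group, 1 stood out. The ratio of Col3a1 to Col1a1 reads was 0.332 in wild-type library 4, against 0.256 to 0.275 in the other wild-type libraries, a gap of 0.758 of the group's range where 0.71 is the limit for 5 samples. Chance alone gives such a gap in about 1 in 20 groups.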

How the results depend on the processing

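Of the collagen genes, 0 were called in the reported fit, 4 by DESeq2, 14 by limma-voom with sample quality weights (6 higher, 8 lower), 1 with the GC and length trend removed (Col8a1; a setting added after seeing the data) and 0 to 2 when each library was left out (Col13a1 and Col8a1 without knockout-labelled library 1). The other settings run gave 0. The median log2 fold change turned from -0.08 to 0.107 with 1 surrogate variable, 0.153 with the first principal component, 0.0456 with the Y-linked covariate (23 above 0, 19 below) and 0.0918 without knockout-labelled libraries 2, 3 and 5.

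The directions of 10 named genes turned, with log2 fold changes as follows. With 1 surrogate variable, Col4a1 was at 0.107, Col4a2 at 0.133, Col4a5 at 0.107, Col9a2 at -0.0483, Col9a3 at -0.0351 and Col11a1 at 0.225. With the Y-linked covariate, these were 0.0555, 0.0696, 0.143, -0.164, -0.183 and 0.206, and Col16a1 was at -0.0329. With the first principal component, they were 0.147, 0.166, 0.194, -0.0633, -0.0717 and 0.260, and Col4a6 was at 0.0232. Without libraries 2, 3 and 5 they were 0.0845, 0.0912, 0.176, -0.123, -0.117 and 0.177, and Col4a6 was at 0.0377. With the trend removed, Col9a2 was at -0.122 and Col11a1 at 0.227. With quality weights Col10a1 was at 0.00334. With each library left out, Col1a2 ranged from -0.0155 to 0.208, Col9a2 from -0.0129 to 0.158, Col10a1 from -0.161 to 0.00604 and Col11a1 from -0.140 to 0.0385. The cause was not tested.

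Among the ratios, removing the trend turned Col5a1/Col5a2 to -0.0458, Col2a1/Col11a1 to -0.0895, Col11a2/Col11a1 to -0.0195 and Col9a1/Col9a2 to 0.0429. Without libraries 2, 3 and 5, Col1a1/Col1a2 was 0.149, Col3a1/Col1a1 -0.530, Col8a2/Col8a1 0.378, Col11a2/Col11a1 -0.0865, Col9a1/Col9a2 0.00423, Col9a3/Col9a2 -0.00455, Col4a2/Col4a1 0.00997 and Col6a2/Col6a1 -0.0221. Leaving out each library moved Col4a6/Col4a5 between -0.165 and 0.0353.

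Same-numbered libraries of the 2 groups correlated at 0.162, 0.510, 0.0289, 0.0909 and -0.383 in their deviations, and 1 of 5 knockout-labelled libraries, number 2, correlated best with its own number. The labels do not say that the numbers pair animals, and 5 such correlations cannot decide whether they do. With the replicate number as a block, 0 collagen genes and 1 gene overall were called.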
